A study of Quercus suber with 11 samples.

Results

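Homologs of the MYB and NAC transcription factors that control suberin genes were followed in cork oak (Quercus suber) innercork through the growing season. The members were all loci whose deposited most similar Arabidopsis protein was MYB9, MYB39, MYB41, MYB53, MYB92, MYB93, MYB107 or NAC058, together with LOC112006609, which is named MYB9 in the study. Of these 8 Arabidopsis identifiers, 3 were carried by at least 1 locus and 5 (MYB39, MYB41, MYB53, MYB92 and MYB107) by none. The members were therefore 6 of the 32024 loci in the transcriptome: 2 homologs of MYB9 (AT5G16770), 3 of MYB93 (AT1G34670) and 1 of NAC058 (AT3G18400). LOC112006609 carried the MYB9 identifier itself and counts once. The study also gives the name MYB9 to LOC112034349 and the name NAC058 to LOC111998851 and LOC111994335. Their deposited identifiers are AT1G11050 and AT2G18400, outside the rule, and they are not described here, so the NAC058 homolog followed below is not a locus that the study names so. All 6 passed the minimum level, a mean of at least log2 of 10, and are protein-coding in the RefSeq gene table. The lowest member mean was 9.99, far above that minimum of 3.32.

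Innercork is the living face of a freshly stripped cork plank and holds phellem (cork) cells with phellogen, the cork cambium that forms them. It came from virgin cork, the first cork a tree makes, of wild cork oaks in 1 forest. The 11 trees each gave 1 polyA RNA library: 4 trees in April at the start of cork growth, 3 in June at its peak and 4 in July at an advanced stage. Each month had its own trees, so a month cannot be told apart from its harvest or from the trees it holds.

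Suberin is a polyester of fatty acids, glycerol and ferulate that waterproofs the wall of cork cells, of the root endodermis and of the seed coat. Its enzymes and transporters are switched on together by R2R3-MYB factors. In Arabidopsis, MYB9 and its close paralog MYB107 activate suberin assembly in the seed coat, MYB39 (SUBERMAN) acts in the endodermis, and MYB41, MYB53, MYB92 and MYB93 promote endodermal suberin. MYB93 also restrains lateral root formation in Arabidopsis, and a MYB93 homolog of apple promotes suberin in russeted fruit skin. NAC058 belongs to another family, and silencing its potato counterpart raised the suberin of tuber skin, so a role as activator is not settled for it.

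The values are regularized log values (rlog), read counts scaled per library, taken to log2 and shrunk for loci with few reads. Read depth cannot be taken from them, so the error is the spread between trees, given as SD, and the change between a pair of months is the log2FC, 1 mean rlog less the other, with its standard error (SE). Months were compared with limma over the 22426 loci that passed the minimum, with Benjamini-Hochberg adjustment, and a locus was called at an adjusted p of at most 0.05. Because rlog keeps no gene length, levels are compared for 1 locus between trees and not between loci.

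The libraries themselves differed in ways that touch every comparison. April replicate 2 stood apart from its month, with a mean correlation to the other April trees of 0.0025 on values centred per locus, against up to 0.258 for the other April trees, and it was the highest April tree in 6 of 6 members, level with April replicate 3 in LOC112033310. This correlation within a month was also low in June (0.039 to 0.084) and in July (-0.067 to 0.027), and lowest of all in July replicate 4. Ribosomal RNA took 1.98 to 4.51% of the summed linear values in April, 5.40 to 9.26% in June and 3.76 to 14.7% in July. All 4 phellem marker genes (CYP86A1, CYP86B1, GPAT5 and ASFT) were expressed in every tree, and they are suberin genes themselves. Markers of the other tissues that innercork could hold are given beside the comparisons.

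The 2 homologs of MYB9 (AT5G16770) went different ways over the season. LOC112006609 had an rlog of 13.21, 13.74, 13.42 and 13.28 in the April trees, 13.93, 13.93 and 13.82 in June, and 13.51, 13.65, 13.51 and 13.47 in July. Its level was highest in June (13.90 ± 0.06, n = 3), where all 3 trees lay above every April and every July tree. July (13.53 ± 0.08, n = 4) and April (13.41 ± 0.24, n = 4) overlapped. The June/April rise passed the limma test, with a log2FC of 0.48 (SE 0.13, adjusted p = 0.0444), a 1.40-fold difference. The July/June difference did not (log2FC -0.36, SE 0.13, adjusted p = 0.453), nor did July/April (0.12, SE 0.12, adjusted p = 0.542). The study names MYB9 among suberin genes with a June maximum in these same samples, and LOC112006609 carries that name there. Its June level is therefore no independent result.

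**Figure D1:**
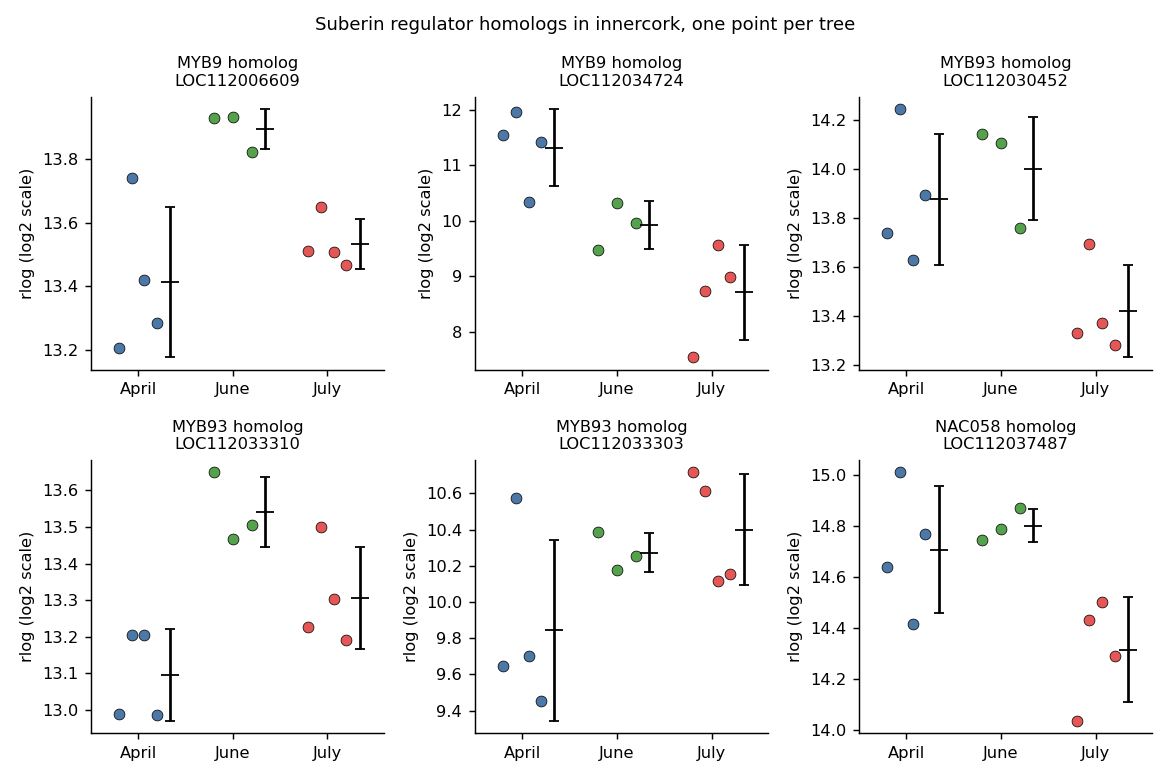
rlog (log2 scale, vertical axis, a range of its own for each panel) of the 6 homologs in April (blue), June (green) and July (red), with 1 point per tree and the mean ± SD beside each month. LOC112006609 stood highest in the 3 June trees, and the mean of LOC112034724 was lower in June than in April and lowest in July.

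The second MYB9 homolog, LOC112034724, was highest at the start of the season. Its rlog was 11.54, 11.96, 10.33 and 11.42 in the April trees, 9.47, 10.33 and 9.96 in June, and 7.54, 8.74, 9.56 and 8.98 in July. Every June and every July tree was below every April tree, although June replicate 2 and April replicate 3 nearly met (10.327 and 10.332). On the linear scale the month means were 2755 ± 1116 in April (n = 4), 996 ± 288 in June (n = 3) and 469 ± 235 in July (n = 4). The July/April fall was the one change among the members that also met the DEG rule of the study (adjusted p of at most 0.01 and absolute log2FC above 1), with a log2FC of -2.61 (SE 0.44, limma adjusted p = 0.00643). This leaves July at 0.164 of the April level. June lay between both months, with a log2FC to April of -1.40 (SE 0.48, adjusted p = 0.0904) and from June to July of -1.21 (SE 0.48, adjusted p = 0.496), neither of which passed.

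The July/April fall of LOC112034724 was called under all 20 alternatives tried, with a log2FC between -2.94 and -2.22 and an adjusted p between 0.00254 and 0.023. The June/April rise of LOC112006609 was less stable. It was not called without April replicate 1, 3 or 4, without any of the June trees, or without July replicate 1, 2 or 3. The call was also lost with no minimum level, quantile normalization, a variance prior without trend, only the 2 months compared or a block for replicate number. Its adjusted p over the 20 alternatives ran from 0.00188 to 0.139. Its log2FC was above 0 in every one of them, between 0.21 and 0.59.

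Within each tree, the gap between the 2 MYB9 homologs was larger in June and July than in any April tree. LOC112006609 exceeded LOC112034724 by 1.66, 1.78, 3.09 and 1.86 on the log2 scale in the April trees, by 4.46, 3.61 and 3.87 in June, and by 5.97, 4.91, 3.94 and 4.49 in July. The gap itself also depends on the length of each locus, but its change between months does not. April did not overlap with June or with July, while June and July did. The change was 1.88 in June/April (exact permutation test, two-sided, p = 0.0571) and 2.73 in July/April (p = 0.0286, the smallest this design allows). Over the 12 such tests of loci that share an Arabidopsis gene, a family added after the values were seen, the adjusted p were 0.098 and 0.0686, and neither passed. With no p below 0.0286 possible, an adjusted p of at most 0.05 would need most of the 12 tests at that bound. Not passing therefore decides little here. Of the summed linear values of the 2 loci, LOC112034724 held 10.5 to 24.0% in April, 4.34 to 7.59% in June and 1.57 to 6.10% in July.

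Of the homologs of MYB93 (AT1G34670), LOC112030452 was lower in July than in June. Its rlog was 13.74, 14.24, 13.63 and 13.89 in the April trees, 14.14, 14.10 and 13.76 in June, and 13.33, 13.70, 13.37 and 13.28 in July. All July trees lay below all June trees, while April overlapped with both. The order of the month means was June (14.00 ± 0.21), April (13.88 ± 0.27) and July (13.42 ± 0.19). No difference passed the limma test: the log2FC was 0.12 in June/April (SE 0.17, adjusted p = 0.669), -0.46 in July/April (SE 0.16, adjusted p = 0.0852) and -0.58 in July/June (SE 0.17, adjusted p = 0.36).

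LOC112033310, also a MYB93 homolog, followed the June pattern of LOC112006609. Its rlog was 12.99, 13.21, 13.20 and 12.99 in the April trees, 13.65, 13.47 and 13.51 in June, and 13.23, 13.50, 13.30 and 13.19 in July. The June trees lay above every April tree, and July replicate 2 reached into the June range. The June/April rise was called, with a log2FC of 0.44 (SE 0.11, limma adjusted p = 0.0354), a 1.36-fold difference. July/April (0.21, SE 0.10, adjusted p = 0.21) and July/June (-0.24, SE 0.11, adjusted p = 0.598) did not pass. The June call was lost without April replicate 1, 3 or 4, without any June tree and without July replicate 3. It was also lost with quantile normalization, a variance prior without trend, only the 2 months compared or a block for replicate number. Over the 20 alternatives the log2FC lay between 0.21 and 0.51, with an adjusted p from 0.00445 to 0.251.

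LOC112033303, the remaining MYB93 homolog, differed mainly among the April trees. Its rlog was 9.64, 10.57, 9.70 and 9.45 in April, 10.39, 10.18 and 10.26 in June, and 10.72, 10.61, 10.12 and 10.16 in July. April replicate 2 lay inside the July range, and the other 3 April trees lay below every June and July tree. With all trees the log2FC was 0.43 in June/April (SE 0.26, adjusted p = 0.297), 0.56 in July/April (SE 0.24, adjusted p = 0.145) and 0.13 in July/June (SE 0.26, adjusted p = 0.942). Without April replicate 2 the first and the second of these were called, with log2FC of 0.67 and 0.80 and adjusted p of 0.0251 and 0.00934 in limma. This locus carries a second Arabidopsis identifier, that of a tubulin folding cofactor (PORCINO), and reads of both parts cannot be told apart. It lies next to LOC112033310 in the order of the deposited loci, and how reads of such a pair of copies were shared was not tested.

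LOC112030452 also stood less far above the other MYB93 homologs in July. LOC112030452 exceeded LOC112033310 within a tree by 0.75, 1.04, 0.43 and 0.91 in April, by 0.49, 0.64 and 0.25 in June, and by 0.10, 0.19, 0.07 and 0.09 in July. The July trees did not overlap with either other month. The change was -0.67 in July/April and -0.35 in July/June, each with an exact permutation p of 0.0286 and an adjusted p of 0.0686. Against LOC112033303 the changes of LOC112030452 were -1.02 in July/April and -0.71 in July/June, with the same p and adjusted p. These p stood at the bound given for the MYB9 homologs, so not passing after adjustment decides little here too. The difference between LOC112033310 and LOC112033303 gave no p under 0.05 in any comparison, with the July/April change at -0.35 (exact permutation p = 0.229). LOC112030452 held 55.2 to 63.9% of the summed linear values of the MYB93 homologs in April, 51.9 to 58.5% in June and 47.8 to 50.2% in July.

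**Figure D2:**
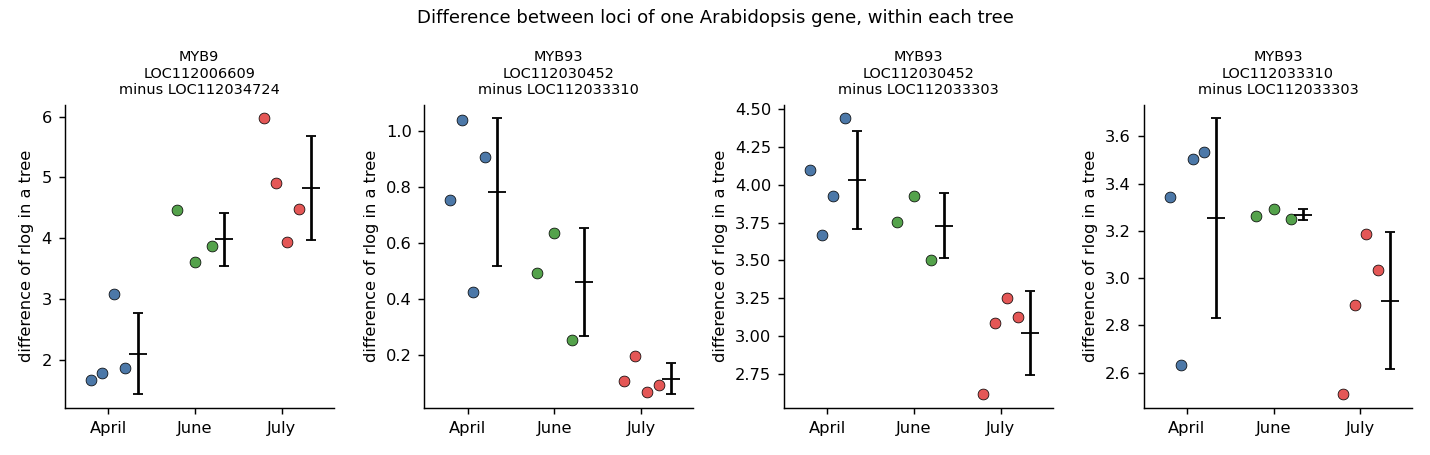
Difference of rlog within each tree (vertical axis, log2 scale, a range of its own for each panel) between loci that share an Arabidopsis gene, in April (blue), June (green) and July (red), with 1 point per tree and mean ± SD. The MYB9 difference was higher in all 4 July trees than in all April trees, and the first and second MYB93 differences were lower in all July trees than in all April and June trees.

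The homolog of NAC058 (AT3G18400), LOC112037487, was lower in July than in June. Its rlog was 14.64, 15.01, 14.41 and 14.77 in the April trees, 14.74, 14.79 and 14.87 in June, and 14.04, 14.43, 14.50 and 14.29 in July. All July trees lay below all June trees, and July overlapped with April through April replicate 3. June (14.80 ± 0.06) and April (14.71 ± 0.25) did not differ beyond their spread, and July (14.31 ± 0.21) came last. The log2FC was 0.09 in June/April (SE 0.16, adjusted p = 0.738), -0.39 in July/April (SE 0.15, adjusted p = 0.11) and -0.49 in July/June (SE 0.16, adjusted p = 0.417), none of which passed the limma test.

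**Figure D3:**
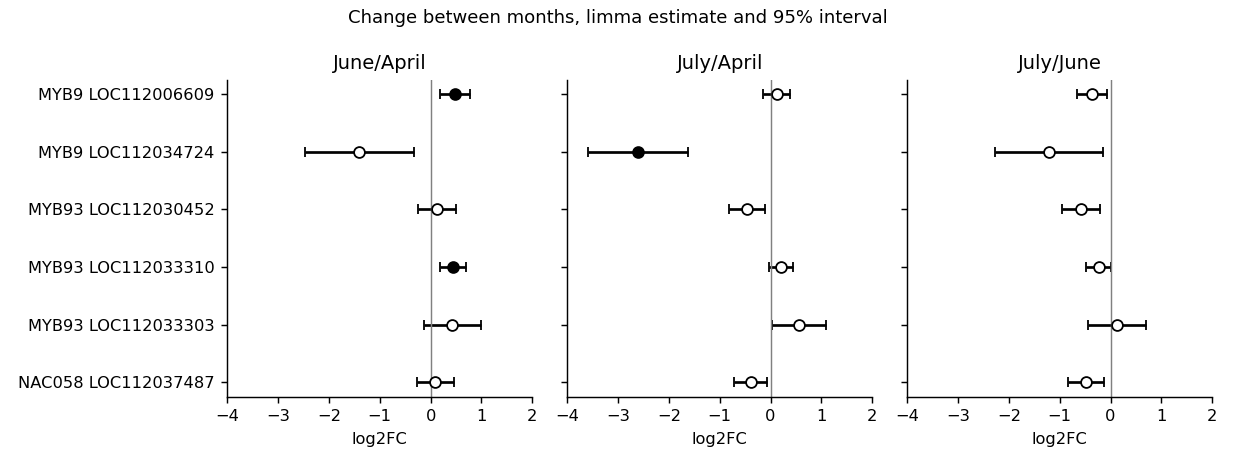
log2FC of each homolog (horizontal axis, limma estimate with its 95% interval) in June/April, July/April and July/June, with filled points at an adjusted p of at most 0.05. LOC112034724 had the largest fall of the 6, -2.61 in July/April, and the other estimates lay between -1.40 and 0.56.

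In June/April, 2 of the 6 members were called, both higher (LOC112006609 and LOC112033310), and 0 met the DEG rule. Over all loci tested 9.81% were called in this comparison, 5.57% being called higher than in April, and 1.46% met the DEG rule. At an unadjusted p under 0.05 stood 3 members, against 28.3% of all loci. The month ranges did not overlap for 3 members (26.9% of all loci). The median log2FC of the members was 0.28 and that of all loci -0.02.

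In July/April 1 member was called, LOC112034724, and it was lower. Of all loci 12.0% were called, 5.73% being called lower, and 2.04% met the DEG rule. It was also the 1 member without overlap (17.5% of all loci, 8.78% in the lower direction), and 4 members had an unadjusted p under 0.05 (30.0% of all loci). Here the median log2FC was -0.14 over the members and -0.02 over all loci. In July/June 0 members were called by limma, beside 0.00446% of all loci, although 4 members had an unadjusted p under 0.05 (8.93% of all loci). Here 5 of 6 members had a log2FC below 0, and for 3 of them (LOC112006609, LOC112030452 and LOC112037487) July lay wholly below June (5.58% of all loci, and 10.7% without overlap in either direction). The median was -0.42 over the members and 0.00 over all loci. June/April and July/April share the April trees, and July/June shares its trees with both.

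Markers of other cell types differed between the months. Bulk values cannot tell fewer cells of a type from less RNA per cell. Summed linear values of the phellem markers were 514498 to 1035113 in April, 995642 to 1207631 in June and 655255 to 827867 in July. Phellogen and cambium markers (5 of 6 genes with a tested locus, PXY without) summed to 15661 to 23346 in April, 8515 to 9310 in June and 7994 to 16428 in July, and 4 of their 7 loci were called lower in June/April. Markers of dividing cells (3 of 6, without CDKB1;1, CDKB2;1 and CYCB1;1) summed to 3667 to 4602, 1890 to 3006 and 2611 to 4851, with 3 of 5 loci called lower in June/April. Over all loci 9.81% were called in June/April, in either direction.

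Xylem markers (5 of 7, without VND7 and XCP2) ran the other way, with sums of 1388 to 3920 in April, 4438 to 6335 in June and 4201 to 31102 in July, and 7 of 10 loci called higher in July/April (12.0% of all loci in either direction). Those called are homologs of CESA4, CESA7, CESA8 and LAC17, wall genes for which the study proposes a part in latecork formation. The XCP1 homolog LOC112002930 was not called in July/April (log2FC -0.87, limma adjusted p = 0.769). Phloem markers (4 of 5, without APL) summed to 5111 to 13490, 19431 to 30594 and 6209 to 28403 in the same order of months, with 0 of 9 loci called in limma. At an unadjusted p under 0.05 stood 1 of these loci in June/April, LOC111994151, a homolog of the sieve element protein SEOR1 (log2FC 1.497, adjusted p = 0.0777), and 2 in July/April. Over all loci, 28.3% had an unadjusted p under 0.05 in June/April and 30.0% in July/April. In 2 of the 9 phloem loci all June trees lay above all April trees (26.9% of all loci without overlap in either direction). Of the green tissue markers 1 of 5 was found, at sums of 18.4 to 22.5, 13.0 to 16.8 and 15.4 to 20.3. The part of these tissues in the results for the MYB and NAC homologs was not tested.

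The genes on which such factors act were mostly higher in June without passing the test. Most of those tested here, such as CYP86A1, CYP86B1, GPAT5 and ASFT, are named by the study for a June maximum in these same samples. Their June level is therefore no independent result. The list of suberin structural genes, with 22 Arabidopsis genes for fatty acid elongation and oxidation, acylation, polyester synthesis and export, matched 36 loci, and 25 of them, of 15 Arabidopsis genes, passed the minimum. In June/April 21 of 25 stood above 0, with a median log2FC of 0.46. Called were 9.81% of all loci (5.57% higher) and 2 of the 25 structural loci, both higher. These were LOC112009780, a homolog of CYP86B1, the hydroxylase of very long chain fatty acids (log2FC 1.18, SE 0.25, limma adjusted p = 0.0193), and LOC111989476, a homolog of GELP96, an enzyme of suberin polymerization (log2FC 0.81, SE 0.17, adjusted p = 0.0199). In July/April 1 of 25 was called (12.0% of all loci), LOC111989476 again (0.66, SE 0.16, adjusted p = 0.0272), and the median was -0.04. In July/June 0 of 25 were called in limma, and 7 stood at an unadjusted p under 0.05 (8.93% of all loci). Below 0 were 23 of 25, with a median of -0.58.

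The other regulators were 6 Arabidopsis genes with 21 loci, of which 12 were tested. MYB36, a regulator of the Casparian strip, had a pair of homologs that fell from April to July: LOC112023896 by -1.47 (SE 0.20, limma adjusted p = 0.00244) and LOC112023410 by -0.89 (SE 0.20, adjusted p = 0.018). Its remaining tested homolog, LOC112032137, was not called (July/April log2FC -0.38, SE 0.12, adjusted p = 0.0605). MYB4, a repressor of phenylpropanoid genes, had homologs that moved in both directions. LOC112009383 rose in June/April by 0.86 (SE 0.17, adjusted p = 0.0165), LOC111991808 fell by 0.87 (log2FC -0.87, SE 0.19, adjusted p = 0.0215), and LOC112037069 had a July/April log2FC of -0.71 (SE 0.15, adjusted p = 0.0142). Of 3 tested homologs of MYB3, another repressor of that family, LOC112011850 had a June/April log2FC of -0.93 (SE 0.23, adjusted p = 0.0334), and LOC112017413 (-0.06) and LOC112031995 (-0.35) were not called. The study already lists LOC112023896, LOC112023410, LOC111991808 and LOC112011850 as upregulated in April in these same samples, with larger falls in its values from counts. Their falls are therefore no independent result. In all, 1 of 12 was called higher and 2 lower in June/April (9.81% of all loci in either direction). In July/April 3 were called lower (5.73% of all loci). In July/June 0 were called by limma, and 4 had an unadjusted p under 0.05 (8.93% of all loci). The medians were -0.24, -0.31 and -0.21.

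**Figure D4:**
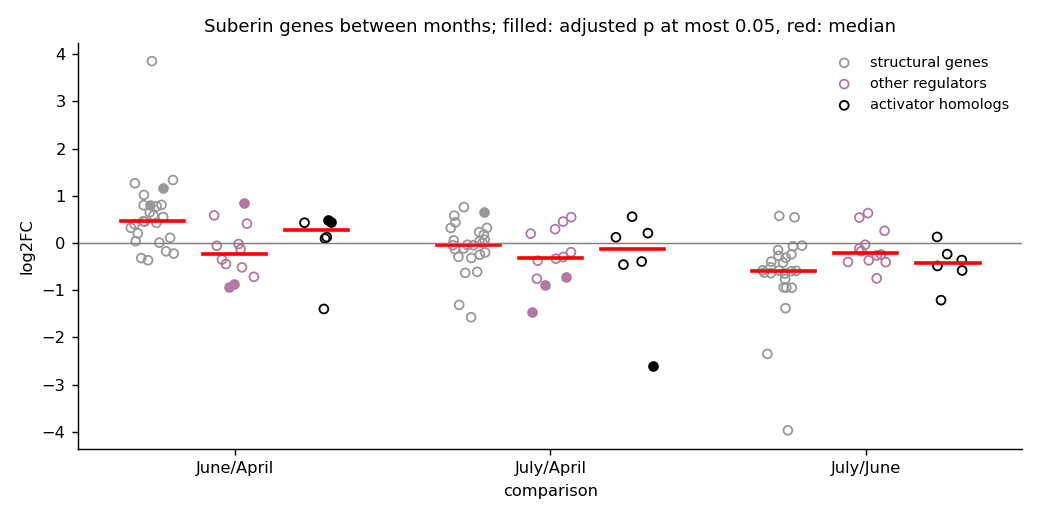
log2FC (vertical axis) of the 25 suberin structural loci (grey), the 12 other regulators (purple) and the 6 homologs (black) in the 3 comparisons. The legend labels the 6 activator homologs, although that role is not settled for NAC058. Filled points stand at an adjusted p of at most 0.05 and red bars at the medians. In June/April the structural loci had a median of 0.46 and the homologs one of 0.28, and in July/June both medians lay below 0.

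Whether trees with more of a regulator also had more of the structural genes was asked with a suberin score, the mean rlog of the 25 structural loci in a tree. The score was 12.53 to 12.96 in April, 13.12 to 13.37 in June and 12.35 to 12.93 in July. Since the study names most of these genes for a June maximum in the same samples, the June peak of the score is no independent result. MYB9 is named there too, so the r of LOC112006609 over all trees is not independent of that choice either. Over the 11 trees, Pearson's r with the score was 0.80 for LOC112006609 (rho 0.75), 0.73 for LOC112037487 (rho 0.76) and 0.72 for LOC112033310 (rho 0.72). Their permutation p were 0.00441, 0.011 and 0.0153 for r, and 0.01, 0.00844 and 0.0161 for rho. Adjusted over the 6 members, those for r were 0.0265, 0.0307 and 0.0307, so 3 of 6 passed. All June trees scored above all other trees, so a locus that is higher in June tends to follow the score. The share of all loci with such an r was not worked out for this or any later form of the score. These counts of members therefore have no background beside them. Which members passed depended on the loci in the score, as given below.

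LOC112030452 had an r of 0.63 (permutation p = 0.0408, adjusted p = 0.0611) and a rho of 0.75 (p = 0.0111, adjusted p = 0.0222). LOC112034724 (r 0.21, rho 0.18) and LOC112033303 (r 0.19, rho 0.18) did not follow the score, each with an adjusted permutation p of 0.566 for r and 0.596 for rho. Without June replicates 1 and 3, the pair farthest from the median score, 0 of 6 members passed over the 9 trees that remained, with r of 0.69 for LOC112006609, 0.74 for LOC112037487, 0.45 for LOC112033310, 0.66 for LOC112030452, 0.44 for LOC112034724 and 0.07 for LOC112033303 (adjusted permutation p from 0.118 to 0.844). The r of LOC112033310 was lower than over all trees, while those of LOC112037487 and LOC112030452 were as high as before.

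**Figure D5:**
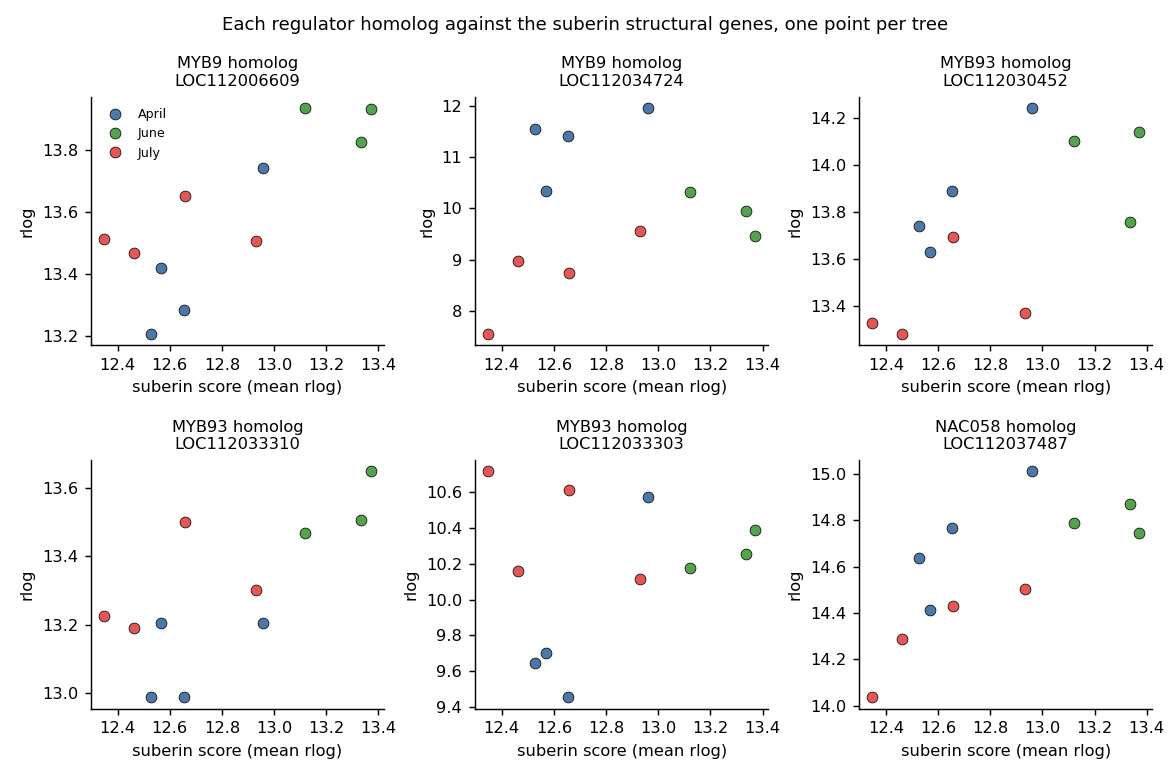
rlog of each homolog (vertical axis) against the suberin score (horizontal axis, mean rlog of 25 structural loci), with 1 point per tree in April (blue), June (green) and July (red). The 3 June trees had the highest scores, above 13.1, and the 8 other trees lay between 12.35 and 12.96.

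Within months, with the month mean subtracted from both measures, 0 of 6 members passed after adjustment (exact permutation within months, 3456 arrangements). The highest month-centred r was that of LOC112037487, 0.81 (exact permutation p = 0.0127, adjusted p = 0.0764). The score, however, leaned on a single locus. LOC111994753, a homolog of the lipid transfer protein LTPG15, had an rlog of 12.49 to 12.71 in April replicate 3, June replicates 1 and 3 and July replicate 3, and of 3.82 to 5.01 in the other 7 trees.

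With that locus left out of the score, a choice made after its values were seen, the month-centred r was 0.91 for LOC112037487, 0.83 for LOC112030452 and 0.74 for LOC112034724. Their adjusted exact permutation p were 0.0174, 0.0174 and 0.0428. LOC112006609 (0.58, adjusted p = 0.45), LOC112033303 (0.46, adjusted p = 0.513) and LOC112033310 (0.22, adjusted p = 0.585) did not pass. Over the 11 trees without month-centring, this score gave an r of 0.80 for LOC112006609, 0.79 for LOC112037487 and 0.77 for LOC112030452. Each had an adjusted permutation p of 0.0134, while LOC112033310 (0.59, adjusted p = 0.0864) no longer passed. LOC112034724 and LOC112033303 again did not pass (0.29 each, adjusted p = 0.383). Whether these correlations differ from one member to another was not tested.

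These month-centred values were not equally firm. Without each tree in turn, r stayed between 0.86 and 0.94 for LOC112037487, which missed the threshold without April replicate 1 (adjusted p = 0.0521) and without July replicate 1 (adjusted p = 0.0694). For LOC112030452 it stayed between 0.68 and 0.89, missing the threshold without April replicate 1 (adjusted p = 0.0521). For LOC112034724 it lay between 0.57 and 0.77, and it passed without June replicate 1, June replicate 3 or July replicate 2 but not without any of the others. Quantile normalization between trees gave 0.74 (adjusted p = 0.0208), 0.59 (adjusted p = 0.108) and 0.84 (adjusted p = 0.0347) for the 3 loci in that order. Without April replicate 2, LOC112006609 had an r of -0.12. Without April replicate 3, LOC112006609 (0.87, adjusted p = 0.0312) and LOC112033310 (0.76, adjusted p = 0.0486) passed as well.

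Among themselves, the members formed no single pattern over the 11 trees. As a description, r was 0.89 between LOC112006609 and LOC112033310, both highest in June, and 0.70 with the month means subtracted. It was 0.85 between LOC112030452 and LOC112037487 (0.60 month-centred) and 0.78 between LOC112034724 and LOC112037487 (0.87 month-centred). The 2 MYB9 homologs had an r of -0.18 (0.15 month-centred). All pairs share the same libraries and their scaling.

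For the 3 members of highest mean rlog, the loci with the most similar profile outside the members were listed by Pearson's r over the 11 trees. For LOC112037487 these were LOC112041139 (r 0.94), a homolog of a beta-glucanase of glycosyl hydrolase family 17, LOC112010556 (r 0.94), a homolog of a RING-type zinc finger protein, and LOC112023933 (r 0.94), a homolog of the serine palmitoyltransferase subunit LCB1, which starts sphingolipid synthesis. For LOC112030452 they were LOC112023357 (r 0.94), a homolog of the receptor-like cytoplasmic kinase PBL34, LOC111984808 (r 0.94), and LOC112011130 (r 0.94), a homolog of a lectin receptor kinase. For LOC112006609 they were LOC111993665 (r 0.95) and LOC112000325 (r 0.95), homologs of a geranylgeranyl diphosphate synthase and of its related subunit GGR, and LOC112004474 (r 0.94), a homolog of the exocyst subunit EXO70G1. They are the highest of 22426 loci and carry no test.

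Position gave a further view of which Arabidopsis gene a locus corresponds to, looked at after the values were seen. For 4 of 6 members, at least 1 of the 3 deposited loci on either side was most similar to another Arabidopsis gene whose number lies within 50 of the member's own. Neighbours with the same identifier, such as LOC112033310 and LOC112033303, were not counted. Over the 30616 loci with a nuclear Arabidopsis identifier the share with such a neighbour was 18.0%. LOC112006609 lay beside LOC112006623 and LOC112034724 beside LOC112034521, both homologs of AT5G16760, the gene numbered just before MYB9 in Arabidopsis. LOC112034724 also lay 3 loci from LOC112034454, a homolog of AT4G17790, whose number follows that of MYB39. LOC112030452 had neighbours from the MYB93 region of Arabidopsis and LOC112037487 one from the NAC058 region. In the RefSeq table, which orders a later assembly, such neighbours were found near LOC112006609 and LOC112030452 and not near LOC112034724 or LOC112037487. Each locus has its best Arabidopsis match only, so a counterpart of MYB107 or MYB39 among the MYB9 homologs cannot be told apart from one of MYB9.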

How the data were processed

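Innercork RNA from 11 trees was sequenced as unstranded polyA libraries, 1 per tree. The authors trimmed and filtered reads, mapped them to CorkOak1.0 with STAR 2.5.3a, counted them per locus and deposited rlog values of DESeq2 on the log2 scale, in which counts were divided by size factors and loci with few reads shrunk. The range was -1.95 to 21.6. Fold changes of loci with few reads are therefore understated, and read depth is unknown. Arabidopsis identifiers are the authors' best BLASTP match, listed for 30676 loci. Every column of values was matched to 1 tree by its label.

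The 22426 loci whose mean over the trees reached log2 of 10 were fitted in R 4.3.3 with limma 3.58.1 (month as factor, all 11 trees, variance trend, 2.38 prior degrees of freedom, median residual SD 0.302), with Benjamini-Hochberg adjustment over all of them. The fit was tested on simulated data. A test for counts, as the study used, could not be run on rlog values. Correlations used 100000 permutations (20000 where a tree was left out), adjusted over 6 members, in Python 3.11.15 with numpy 2.4.6. Differences between loci of 1 Arabidopsis gene were tested by exact permutation over trees. Figures were drawn with matplotlib 3.10.9.

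All members were named, together with called loci of the structural and regulator lists and, for the 3 members of highest mean, the 3 loci of most similar profile. Members and lists were chosen with earlier results of these data known. Replicate numbers did not tie trees of different months together (mean correlation of deviations 0.02 over 10 same-numbered pairs against -0.01 over 30 others), so no block entered the model. The numbers, also in the block, were those of the sample titles, which for some June trees differ from the numbers in the library labels. Alternatives were tried for the minimum level and for a pseudocount of 1, quantile and median normalization, the variance prior, tree weights, fits of 2 months, the block, leaving out each tree, and the score. The RefSeq gene table belongs to Cork oak 2.0 and gave biotypes and, from its gene positions, neighbours, and none of its coordinates are printed. A planned comparison of levels per coding length was not run, since no lengths were used here.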

Additional observations from a re-analysis of the deposited data

How the results depend on the processing

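The number of members called depended on the processing in June/April and less so in July/April. In June/April, against 2 called, 1 was called with no minimum level, 4 with limma arrayWeights, and 0 with quantile normalization, with a variance prior without trend, with only the 2 months compared, or with the DEG rule. Leaving out each tree gave 0 to 3. The replicate block gave 0 called in June/April, with log2FC of 0.45 for LOC112006609 (limma adjusted p = 0.0756) and 0.41 for LOC112033310 (adjusted p = 0.089), and left LOC112034724 called in July/April (-2.61, adjusted p = 0.0184). The replicate numbers do not pair the trees. The block changed no other call of a member. In July/April, against 1, there were 3 called with quantile normalization (LOC112030452 and LOC112037487 besides LOC112034724), 3 with arrayWeights (LOC112033303 and LOC112033310 besides), and 1 to 2 without each tree. In July/June 0 were called throughout. The median log2FC of the members in June/April moved to 0.020 with quantile normalization and was 0.21 to 0.36 without each tree. Without April replicate 2, the share of loci called by limma was 21.4% for June/April, and 22.8% for July/April. With arrayWeights, where that tree weighed 0.26 and July replicate 4 weighed 0.40, it called 30.1% and 30.2%. Of the correlations with the score, against 3 of 6, 0 passed with the 2 farthest trees left out, with month means subtracted or with quantile normalization, and 0 to 4 without each tree. With 1 locus per Arabidopsis identifier in the score 2 passed, LOC112006609 and LOC112033310, while LOC112037487 had an r of 0.57 (adjusted permutation p = 0.141).

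The values whose direction turned passed no test with all trees and the values as deposited. With quantile normalization the June/April log2FC of LOC112030452 was -0.17 and of LOC112037487 -0.22, the July/April log2FC of LOC112006609 was -0.047, and r of LOC112033303 with the score was -0.19. In the same setting the month-centred r without LTPG15 was -0.36 for LOC112006609 and -0.35 for LOC112033310, and LOC112033310 minus LOC112033303 changed by -0.18 in June/April. Without each tree, the June/April log2FC of LOC112037487 reached -0.0039 (0.19 at most over all alternatives), r of LOC112034724 ran from -0.085 to 0.35, and LOC112033310 minus LOC112033303 ran from -0.19 (without April replicate 2) to 0.11 in June/April. The month-centred r ran from -0.12 to 0.87 for LOC112006609, from -0.058 to 0.76 for LOC112033310 and from -0.34 to 0.65 for LOC112033303, each lowest without April replicate 2, and the first and the second passed without April replicate 3. The causes were not tested. Depth is unknown here, and with 3 or 4 trees a month the exact tests of differences between loci cannot go below 0.0286.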
